A study of Mus musculus with 6 samples.

Results

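Mitochondrial calcium uptake and release was described here through the transcripts of 8 genes, Mcu, Mcub, Smdt1, Micu2, Micu3, Mcur1, Letm1 and Slc8b1. Protein levels and the movement of calcium were not measured in these libraries. The genes were taken by gene name from the deposited tables of 54532 genes, and each name matched 1 row. Transcripts were measured by RNA-sequencing of whole kidneys from 3 WT mice and 3 Trpm2-/- mice, which the labels give as strain C57BL/6J and 6 to 8 weeks old. The methods name the strain without the substrain and give an older range of ages, and the sources were not reconciled. Each mouse of both genotypes had received cisplatin at 18 mg/kg, a platinum drug that injures the proximal tubule, and kidneys were taken at 72 h. The Trpm2-/- mice carry a deletion of exons in Trpm2, a calcium-permeable cation channel of the plasma membrane, and make a protein that lacks part of its membrane domain. By the methods, WT mice were bought from a breeder and Trpm2-/- mice came from another colony, so origin and genotype cannot be told apart. No library from an untreated kidney was analysed here, so each comparison is between genotypes under cisplatin and says nothing of the effect of the drug.

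Calcium enters the mitochondrial matrix through the uniporter, a channel of the inner membrane driven by the membrane potential. Mcu encodes its pore, Mcub a paralogue of the pore that lowers its conductance, and Smdt1 encodes EMRE, the small subunit that the animal channel needs to conduct and that ties the pore to its calcium sensors. Micu2 and Micu3 encode EF-hand proteins of the intermembrane space that keep the pore closed at low calcium or ease its opening, and Mcur1 encodes an inner membrane regulator of the pore. Calcium leaves by the sodium-calcium exchanger NCLX, encoded by Slc8b1, while LETM1 is an inner membrane cation-proton exchanger. In the tubule, matrix calcium tunes the dehydrogenases that feed respiration, and its overload opens the permeability transition pore.

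The genes of the pore and of its regulator, Mcu and Mcur1, had the smallest p among the 8, with opposite signs of change between genotypes, and the 250 bases before their start sites are shown for that reason. RefSeq promoters of GRCm38 were matched for 6 of the 8 genes, Micu3 and Slc8b1 having no entry. The Mcu stretch is chr10:59616693-59616942 and the Mcur1 stretch chr13:43560192-43560441, both on the minus strand and read here 5′ to 3′. Capitals mark matches, on either strand, to any of 5 motifs, which are spelled out in the next paragraph and were chosen with these promoters in view. No match in these stretches overlapped another.
Mcu: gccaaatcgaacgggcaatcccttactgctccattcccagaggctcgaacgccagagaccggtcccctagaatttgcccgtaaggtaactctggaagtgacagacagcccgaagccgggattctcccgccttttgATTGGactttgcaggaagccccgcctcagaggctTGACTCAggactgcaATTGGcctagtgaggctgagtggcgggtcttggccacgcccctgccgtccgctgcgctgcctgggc
Mcur1: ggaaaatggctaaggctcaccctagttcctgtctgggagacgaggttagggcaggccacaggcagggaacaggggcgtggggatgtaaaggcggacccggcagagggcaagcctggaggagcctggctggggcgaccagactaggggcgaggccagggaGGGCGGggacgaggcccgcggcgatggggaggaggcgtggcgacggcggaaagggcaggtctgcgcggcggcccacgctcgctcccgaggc

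The Mcu stretch held TGACTCA, the motif of AP-1 factors, 81 bases before the start, which 5.95% of 27025 genes with a promoter hold in the same 300-base window (250 bases before to 50 after the start). It also held CCAAT on the opposite strand at 115 and 66 bases before the start, a motif found in 41.1% of genes. The Mcur1 stretch held GGGCGG, the GC box, 91 bases before the start, a motif found in 38.2% of genes, and it had a GC content of 70.8% against 60.8% for Mcu. Smdt1 was the member with TGACGTCA, the cyclic AMP response element, 146 bases before its RefSeq start, a motif of 2.03% of genes. That start lies inside the annotated gene, and the 250 bases before it (chr15:82345796-82346045) overlap annotated exons of Smdt1. AAGGTCA, the motif of estrogen-related receptors, was in 0 of the 6 promoters and in 5.38% of genes. These are matches of letters and not sites of binding, which was not measured.

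Total counts on genes were between 14053307 and 17150089 per library, and 3 counts, the smallest number taken as detectable, came to 0.175 to 0.213 CPM (counts scaled to a common library size), a limit that covers counting error only. Trpm2 itself had 5, 5 and 27 counts in WT libraries 1, 2 and 3 and 10, 16 and 20 counts in Trpm2-/- libraries 1, 2 and 4. The allele keeps most exons, and reads on them enter the same gene total, so the genotype of a library cannot be read from these few counts. Markers of the labelled tissue were present, with Slc34a1, the phosphate carrier of the proximal tubule, at 14.3 to 235 FPKM (fragments per kilobase of exon, scaled to the size of the library) and Aqp2, the water channel of the collecting duct, at 300.3 to 787 FPKM. Genes of the mitochondrial genome took 4.43% to 4.72% of counts in WT libraries and 7.91% to 11.0% in Trpm2-/- libraries. The part of that share in the results below was not tested beyond a fit without those genes.

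Among the 8 genes, Mcur1 was lower in Trpm2-/- kidneys and Mcu was higher in each Trpm2-/- library than in each WT library, though Mcu missed the threshold. Genotypes were compared on the counts with the quasi-likelihood test of edgeR, and a gene was called at a Benjamini-Hochberg adjusted p under 0.05 over the 15816 genes tested. All 8 genes passed the filter on low counts, and 1 of them was called, Mcur1, which was lower, with 0 called higher. Of all genes tested, 12.0% were called, 4.74% as higher and 7.28% as lower, so 1 of 8 is near the background. At an unadjusted p under 0.05, 3 of the 8 passed, Mcu, Mcur1 and Letm1, against 28.3% of all genes, and 0 of the 8 passed the threshold of the methods (absolute log2 fold change above 1 with an unadjusted p under 0.05), against 7.60%. The libraries of the genotypes did not overlap for 4 of the 8 genes, and the same held for 33.5% of all genes. The median log2 fold change of the 8 was -0.10, with 4 above and 4 below 0, and that of all genes was 0.02.

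**Figure D1:**
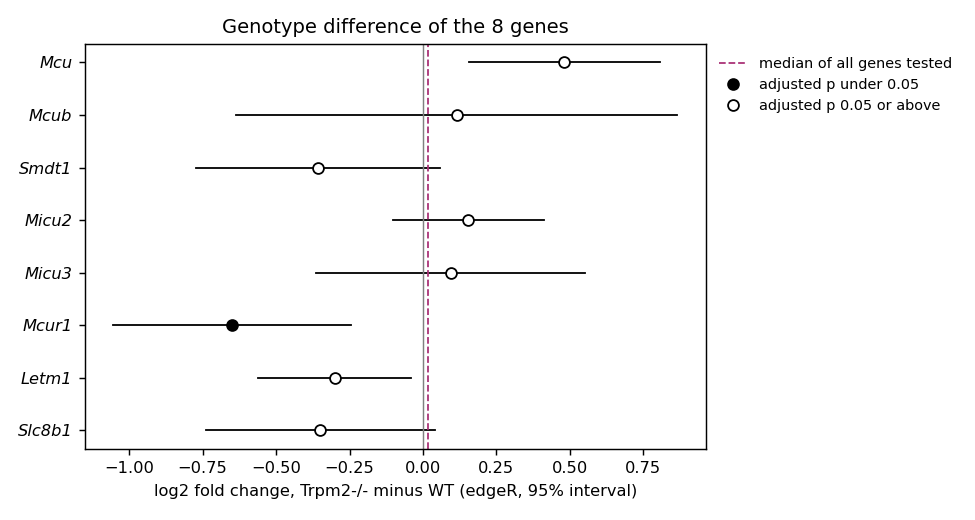
Log2 fold change of each gene (x axis, Trpm2-/- minus WT, edgeR) with its 95% interval; a filled point has an adjusted p under 0.05 and the dashed line is the median of all 15816 genes tested. The intervals of Mcu, Mcur1 and Letm1 leave out 0, and Mcur1 at -0.65 is the filled point.

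The pore gene Mcu lies on chromosome 10 of GRCm38 from 59446984 to 59616692 on the minus strand, and its principal transcript in GENCODE M21 has 8 exons and codes for 350 residues. Its level was 4.87, 4.60 and 4.21 FPKM in WT libraries 1, 2 and 3, and 6.99, 6.89 and 5.36 FPKM in Trpm2-/- libraries 1, 2 and 4. Every Trpm2-/- library was above every WT library, and Trpm2-/- library 4 came closest to the WT range. The means were 4.56 ± 0.330 and 6.41 ± 0.915 FPKM (SD, n = 3), and the fitted level was 1.40 times that of WT (95% interval 1.11 to 1.75). The log2 fold change of 0.48 (standard error 0.146) had an unadjusted p of 0.00834 and an adjusted p of 0.0603 in edgeR, above the threshold. Without Trpm2-/- library 4 it was 0.61 with an adjusted p of 0.0263, and over all 18 alternative fits the adjusted p ran from 0.0263 to 0.2504.

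Mcub, which encodes the paralogue that forms poorly conducting pores, was the lowest of the 8 genes. It lies on chromosome 3 from 129914960 to 129970206. WT libraries had 42, 48 and 38 counts, or 1.72, 2.05 and 1.54 FPKM, and Trpm2-/- libraries had 49, 29 and 59 counts, or 2.00, 1.32 and 2.48 FPKM. The genotypes overlapped, since Trpm2-/- libraries 2 and 4 were the lowest and the highest of the 6. The log2 fold change of 0.11 (95% interval -0.64 to 0.87, adjusted p = 0.862 in edgeR) leaves room for a level between 0.643 and 1.82 times that of WT, an interval that takes in both counting error and the spread between mice. Its sign turned without Trpm2-/- library 4 (-0.08).

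Macrophages are among the cells known to express Mcub, and markers of immune cells are given for that reason. The summed level of the 10 immune markers tested was 139.5 to 179 CPM in WT libraries and 105 to 165 CPM in Trpm2-/- libraries, which overlap. None of the 10 was called by edgeR (0 higher and 0 lower). An unadjusted p under 0.05 in edgeR was found for 3 of the 10, near the share of all genes (28.3%). They were Lyz2 (log2 fold change 1.35), Cd74 (-1.05) and Ptprc (0.76), named here after their values were seen. Ptprc, which encodes the pan-leukocyte antigen, reached 0.254 FPKM at most, and Cd3e and Ly6g, markers of T cells and neutrophils, were at 0 counts in 3 and 2 of the 6 libraries. The part of such cells in the Mcub level was not tested.

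Smdt1 was the most abundant of the 8 transcripts per length. It lies on chromosome 15 from 82338959 to 82349091, and its principal transcript has 3 exons and codes for 107 residues. WT libraries had 94.1, 127.7 and 110.6 FPKM and Trpm2-/- libraries 76.9, 109.7 and 75.002 FPKM. Trpm2-/- libraries 1 and 4 were below all WT libraries, while Trpm2-/- library 2 lay within the WT range. Between genotypes the log2 fold change of -0.36 had a 95% interval of -0.77 to 0.06 and an adjusted p of 0.245 in edgeR. Of the exon bases of Smdt1, 16.6% also lie in exons of Pheta2 on the same strand, so some of its counts could come from that gene.

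Neither gatekeeper gene was called. Micu2 (chromosome 14, 57916261 to 57999262) had 15.3, 15.4 and 14.7 FPKM in WT libraries and 17.6, 16.9 and 16.5 FPKM in Trpm2-/- libraries. The genotypes did not overlap, and the spread within each was the narrowest after that of Letm1 in Trpm2-/- kidneys, with coefficients of variation of 2.53% and 3.32%. The difference was small, a log2 fold change of 0.15 with a 95% interval of -0.10 to 0.41 (adjusted p = 0.416 in edgeR), which keeps the Trpm2-/- level between 0.932 and 1.33 times that of WT.

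Micu3 (chromosome 8, 40307458 to 40386308), a paralogue best known from brain and muscle, had 2.62, 2.50 and 2.84 FPKM in WT libraries. In Trpm2-/- libraries 1, 2 and 4 it had 2.45, 2.32 and 3.79 FPKM. Library 4 was above every WT library and the others below every WT library, so no common direction was present among the Trpm2-/- mice. The log2 fold change of 0.09 (95% interval -0.36 to 0.55, adjusted p = 0.807 in edgeR) turned to -0.15 without library 4. Exons of Fgf20 and Mir7666 on the opposite strand cover 4.18% of its exon bases, and the strand setting of the counting is not given in the sources used here.

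Mcur1 (chromosome 13, 43538393 to 43560191, minus strand), the regulator of the uniporter, was the called member. Its principal transcript has 9 exons and codes for 340 residues. WT libraries 1, 2 and 3 had 13.5, 13.9 and 16.7 FPKM, and Trpm2-/- libraries 1, 2 and 4 had 10.9, 7.00 and 10.5 FPKM. All Trpm2-/- libraries were below all WT libraries, with library 2 well below the other Trpm2-/- libraries. The mean fell from 14.7 ± 1.74 to 9.45 ± 2.13 FPKM (SD, n = 3), and the fitted level was 0.637 times that of WT (95% interval 0.481 to 0.843). On the log2 scale this was -0.65 ± 0.180 (SE), at an adjusted p of 0.0456 in edgeR.

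The call on Mcur1 was close to the threshold. It was lost without WT library 1 (adjusted p = 0.0690), WT library 2 (0.117), WT library 3 (0.189), Trpm2-/- library 2 (0.0662) or Trpm2-/- library 4 (0.0601), and held without Trpm2-/- library 1 (0.0498), all in edgeR. It was also lost without the genes of the mitochondrial genome (adjusted p = 0.0517), with upper quartile normalization (0.0517) and with limma on FPKM (0.0642 to 0.0969), while the sign was negative in all 18 alternative fits, from -0.77 to -0.48.

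Both exchanger genes had negative log2 fold changes and neither passed the threshold. Letm1 (chromosome 5, 33739673 to 33782817) had 10.7, 11.9 and 11.5 FPKM in WT libraries and 9.36, 9.28 and 9.21 FPKM in Trpm2-/- libraries. The genotypes did not overlap, and the Trpm2-/- libraries had a coefficient of variation of 0.796%. The log2 fold change was -0.30 (95% interval -0.56 to -0.04), with an unadjusted p of 0.0283 and an adjusted p of 0.125 in edgeR.

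Slc8b1 (chromosome 5, 120511168 to 120534024), the gene of the main efflux exchanger, had 5.90, 4.92 and 5.87 FPKM in WT libraries and 4.03, 5.24 and 3.94 FPKM in Trpm2-/- libraries. Library 2 of each genotype broke the separation, as it was the lowest WT library and the highest Trpm2-/- library. For this gene the log2 fold change was -0.35 (95% interval -0.74 to 0.04, adjusted p = 0.224 in edgeR).

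**Figure D2:**
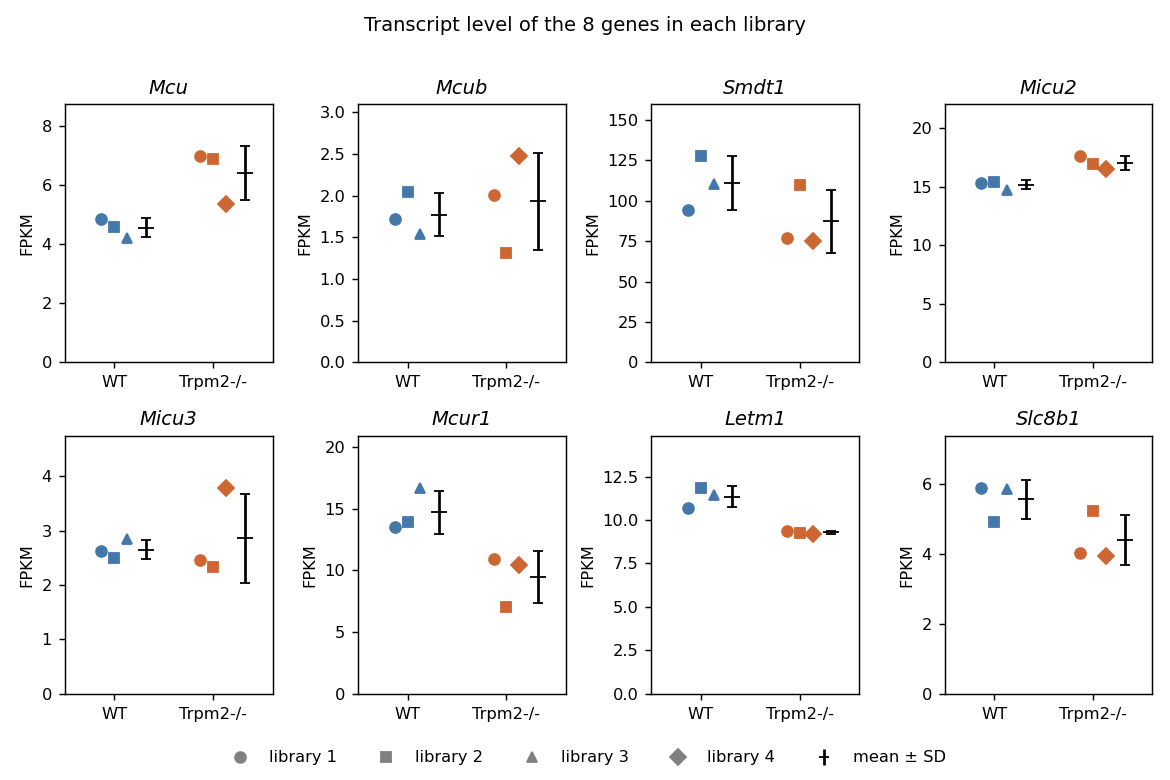
Deposited FPKM (y axis, linear from 0) of the 8 genes in the 3 WT and 3 Trpm2-/- libraries, 1 point per library, whose shape marks the library number; bars beside the points are the mean ± SD. The genotypes are apart for Mcu, Micu2, Mcur1 and Letm1 and overlap for the other genes.

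Levels were next compared between the genes, on the FPKM scale, which divides by gene length. In WT kidneys the order of mean levels was Smdt1 (110.8 FPKM), Micu2 (15.2), Mcur1 (14.7), Letm1 (11.3), Slc8b1 (5.56), Mcu (4.56), Micu3 (2.65) and Mcub (1.77). Micu2 and Mcur1 overlapped between libraries, and every other pair of neighbours was apart. In Trpm2-/- kidneys Mcu (6.41 FPKM) stood above Slc8b1 (4.40 FPKM), and the neighbours whose libraries overlapped were Mcur1 with Letm1 and Micu3 with Mcub. Smdt1 was 7.31 times the next gene in WT kidneys and 5.12 times in Trpm2-/- kidneys.

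This order depends on the length used. The deposited values divide by all exon bases of a gene, which are 6936 for Mcu, while its principal transcript has 2872 bases. Per base of the principal transcript, added after seeing the data, the WT levels were 232 FPKM for Smdt1, 24.0 for Mcur1, 20.8 for Letm1, 20.1 for Micu2, 11.0 for Mcu, 7.36 for Micu3, 6.65 for Slc8b1 and 1.77 for Mcub. Smdt1 stayed first and Mcub last, and Mcu moved above Slc8b1 in WT kidneys too. Comparisons of genotypes within a gene use the same length in every library.

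The other genes, channel subunits, regulators and exchangers alike, were then set against the pore gene within each library, as the ratio of their FPKM to that of Mcu. The ratio of Mcur1 to Mcu was 2.78, 3.02 and 3.97 in WT libraries 1, 2 and 3 and 1.56, 1.02 and 1.95 in Trpm2-/- libraries 1, 2 and 4. All Trpm2-/- ratios were below all WT ratios, and the geometric mean fell by 1.14 on the log2 scale, to 0.453 times that of WT (two-sided exact permutation test, p = 0.1). No comparison of 3 mice with 3 can go below 0.1 in this test, so it cannot reach 0.05.

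The efflux exchanger Slc8b1 stood at 1.21, 1.07 and 1.39 times Mcu in WT libraries and at 0.577, 0.760 and 0.736 times Mcu in Trpm2-/- libraries. Its level was above that of the pore in each WT library and below it in each Trpm2-/- library, on the deposited lengths. The channel subunit Smdt1 had ratios of 19.3, 27.8 and 26.3 in WT libraries and 11.0, 15.9 and 14.0 in Trpm2-/- libraries, and Letm1 had 2.20, 2.58 and 2.72 against 1.34, 1.35 and 1.72. The genotypes were apart for both genes. Micu2 had 3.15, 3.36 and 3.50 against 2.52, 2.46 and 3.08, also apart but with Trpm2-/- library 4 close to the WT range.

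For Mcub and Micu3 the ratios overlapped, because Trpm2-/- library 4 was the highest of the 6 for both genes (0.462 for Mcub and 0.708 for Micu3). Of the 7 ratios, 5 were lower in Trpm2-/- kidneys without overlap, each at p = 0.1 in the exact permutation test and at 0.14 after Benjamini-Hochberg adjustment over the 7. The 7 ratios share the Mcu values of each library and are not independent. Among 15747 genes above 0 in all libraries, 42.5% had a ratio to Mcu that was lower in Trpm2-/- kidneys without overlap.

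**Figure D3:**
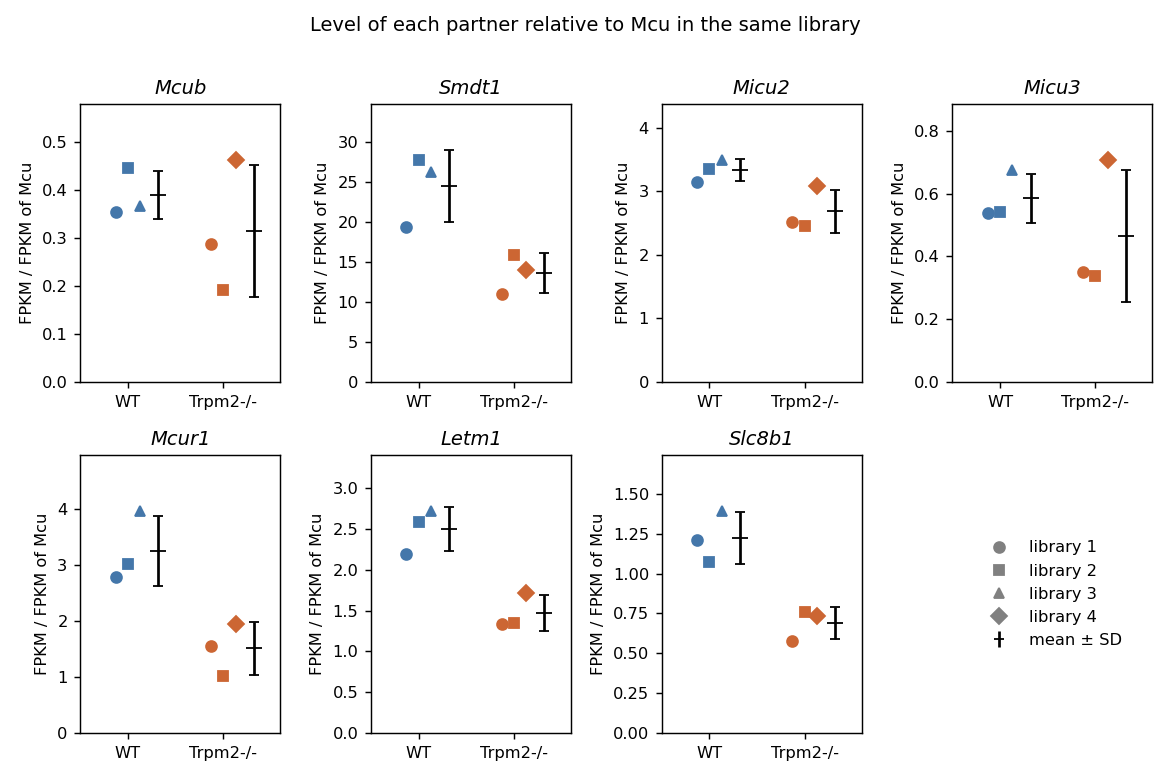
FPKM of each of the other genes divided by the FPKM of Mcu in the same library (y axis, linear from 0), with 1 point per library and the mean ± SD beside the points. The Trpm2-/- points lie below the WT points for Smdt1, Micu2, Mcur1, Letm1 and Slc8b1, and Trpm2-/- library 4 is the highest point for Mcub and Micu3.

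Other genes of calcium handling were read from 5 lists of 59 genes, of which 56 were tested. In edgeR, 5 were called higher and 7 lower, 21.4% of those tested against 12.0% of all genes. Without WT library 1 the calls were 1 higher and 4 lower (8.77%, against 9.23% of all genes), without WT library 2 they were 0 higher and 1 lower (1.75% against 4.24%), and without WT library 3 they were 0 higher and 2 lower (3.51% against 3.86%). With limma on FPKM they were 0 higher and 4 lower at a pseudocount of 1 or 0.1 (7.14%, against 5.34% and 5.67% of all genes). The share was thus below the background when any of the 3 WT libraries was left out. It was above it when a Trpm2-/- library was left out, at 24.6% against 7.77% without library 1. Without library 2 it was 21.1% against 12.6%, and without library 4 it was 19.3% against 11.2%. With limma-voom it was 23.2% against 11.7%. With the DESeq2 Wald test, run with no filter on low counts, it was 28.8% of 59 genes against 8.45% of 28884. That background takes in genes of low counts that the main fit left out, so this gap is not comparable with the others. The 16 carriers and enzymes of the inner membrane and matrix that respond to calcium, or to the state it sets, had a median log2 fold change of -0.42, with 15 below 0. Of the 16, 3 were called lower and 1 higher. Of all 15816 genes tested, 7661 were below 0, 7.28% were called lower and 4.74% higher. The same shares stand beside each list below. Slc25a25, a calcium-regulated carrier of ATP and phosphate, fell by 0.75 on the log2 scale (adjusted p = 0.0127 in edgeR, lost without WT library 2), from 51.6 ± 7.58 to 30.9 ± 1.01 FPKM (SD, n = 3). Idh3g and Idh3b, subunits of the calcium-activated isocitrate dehydrogenase, fell by 0.69 and 0.56 (adjusted p = 0.0177 and 0.0216 in edgeR), and both calls were lost without WT library 2 or 3. Slc25a24, the paralogue of Slc25a25, rose by 0.66 (adjusted p = 0.0410 in edgeR), a call that held in 1 of 6 fits with a library left out, and it is named here after its values were seen.

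At the outer membrane and the contact with the endoplasmic reticulum, 1 of 14 genes was called lower and 1 higher, with a median log2 fold change of -0.15. Vdac1, the voltage-dependent anion channel through which calcium crosses the outer membrane, fell from 254.5 ± 17.1 to 140.2 ± 9.995 FPKM (SD, n = 3). On the log2 scale the change was -0.87 ± 0.140 (SE; adjusted p = 0.00549 in edgeR), and it was called in all 6 fits with a library left out. Itpr3, an inositol trisphosphate receptor that releases calcium from the endoplasmic reticulum, rose from 1.88 ± 0.224 to 3.04 ± 0.115 FPKM (log2 fold change 0.68, adjusted p = 0.0166 in edgeR), and the call was lost without WT library 2 or 3. Hspa9, a chaperone that links both proteins, had a log2 fold change of -0.48 with an adjusted p of 0.0562 in edgeR.

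A list of inner membrane quality control held proteases, prohibitins, the protease partner Maip1 and the fusion GTPase Opa1. All 8 of its genes had log2 fold changes below 0, with a median of -0.25, and 2 were called lower. Spg7, a subunit of a matrix protease that processes mitochondrial proteins, fell by 0.61 and Stoml2, a prohibitin-like scaffold, fell by 0.47 on the log2 scale (adjusted p = 0.0279 and 0.0459 in edgeR). Each call was lost in most fits with a library left out, holding in 2 of 6 and 1 of 6. Phb had -0.55 with an adjusted p of 0.0550.

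Of 9 related exchangers and carriers, 6 were tested, with a median of 0.27, 1 called lower and 1 higher. Ghitm, which encodes TMBIM5, an inner membrane protein of calcium and proton exchange, fell by 0.56 (adjusted p = 0.0409 in edgeR), and Ucp2, an uncoupling protein paralogue, rose by 0.60 (adjusted p = 0.0497), each call holding in 1 of 6 fits with a library left out. Ucp3 had 1.63 with an adjusted p of 0.0661. In the plasma membrane and endoplasmic reticulum list, 2 of 12 were called higher and 0 lower, with a median of 0.08. Atp2b1, a plasma membrane calcium pump, rose by 0.73 and Orai2, a store-operated channel subunit, rose by 0.77 on the log2 scale (adjusted p = 0.0326 and 0.0354 in edgeR), and each call was lost without WT library 1, 2 or 3, that of Orai2 also without Trpm2-/- library 2. Tmco1 had -0.39 with an adjusted p of 0.0642.

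**Figure D4:**
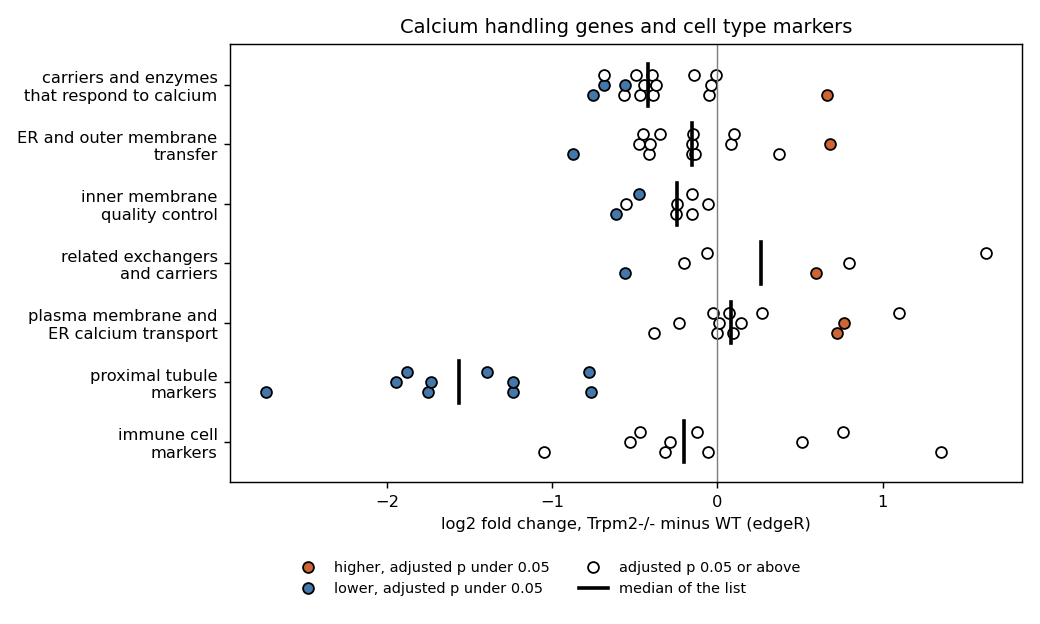
Log2 fold change (x axis, Trpm2-/- minus WT, edgeR) of each tested gene in the 5 calcium handling lists and in the proximal tubule and immune marker lists, 1 point per gene; filled points have an adjusted p under 0.05 and black bars are list medians. All 10 proximal tubule markers are filled and below 0, and no immune marker is filled.

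Markers of the proximal tubule, the segment richest in mitochondria, moved with the genotype. All 10 were called lower in Trpm2-/- kidneys, with a median log2 fold change of -1.57, and their summed level was 3338 to 4194 CPM in WT libraries and 889 to 1456 CPM in Trpm2-/- libraries. None was at 0 counts in any library. The fall was not confined to this segment. Of 9 markers of the distal tubule and collecting duct tested, 8 were below 0 and 3 were called lower. Their summed level was 2492 to 3489 CPM in WT libraries and 1055 to 1891 CPM in Trpm2-/- libraries. In whole kidney, fewer cells of a type and less RNA per cell cannot be told apart, and the part of the tubule markers in the lower Mcur1, Vdac1 and matrix genes was not tested. Of the 10 proximal tubule markers Lrp2, the endocytic receptor megalin, had the log2 fold change nearest to 0 (-0.76), beside -0.65 for Mcur1.

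The genes whose pattern over the 6 libraries was most like that of Mcu and Mcur1 were found from the root mean square difference of centred log2(CPM + 0.5). For Mcu they were Tubb5, a beta-tubulin (0.0427), and Arap1, a GTPase-activating protein (0.0445), against a median of 0.363 over 13652 genes. Tubb5 had a log2 fold change of 0.51 and Arap1 of 0.50. For Mcur1 they were Cat, which encodes the peroxisomal enzyme catalase (0.0643), and Hhex, a homeobox transcription factor (0.0702), against a median of 0.477. Cat had a log2 fold change of -0.68 (adjusted p = 0.0503 in edgeR). Hhex was at 0.933 CPM in WT and 0.418 CPM in Trpm2-/- kidneys, levels at which the added 0.5 narrows the profile, and its fitted log2 fold change of -1.13 (adjusted p = 0.185 in edgeR) was not that of Mcur1, so its place beside Mcur1 rests on the added 0.5. Likeness over 6 libraries of 2 genotypes is a description, and many genes share the split by genotype.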

How the data were processed

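RNA from whole kidneys of 3 WT and 3 Trpm2-/- mice was sequenced by the authors, with libraries of an NEBNext kit for the Illumina platform. The labels name HISAT2, StringTie and build mm9, without versions, while the positions in the deposited tables equal those of GRCm38 in GENCODE M21 for all 8 genes. Strand setting and counting tool are not given in the sources used here. The authors deposited raw counts per gene, and FPKM, in which counts are divided by all exon bases of a gene and scaled to library size. Both can shift for genes that overlap others.

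Counts were tested with edgeR 4.0.16 (TMM, filterByExpr, quasi-likelihood, genotype alone) in R 4.3.3, and p-values were adjusted by Benjamini-Hochberg over 15816 genes. Alternatives used limma 3.58.1 and DESeq2 1.42.0. The fit was tested on simulated data. Ratios to Mcu were tested by exact permutation. Total counts were 14053307 to 17150089. The p-values of edgeR rest on the spread between these mice, with the spread of each gene drawn towards that of other genes. Replicate numbers were not used to pair mice.

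The text names the 8 genes, up to 3 genes of smallest p per calcium list, and the 2 genes closest in profile to Mcu and to each called gene (names of predicted genes left out). Members, lists, motifs and alternatives were chosen with earlier results of these data known. In the main fit 12.0% of all genes were called, 4.74% higher and 7.28% lower. Counts of called genes in that fit are to be read against these shares.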

Additional observations from a re-analysis of the deposited data

How the results depend on the processing

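The sign of the change was the same in all 18 alternative fits for Mcu, Micu2, Mcur1, Smdt1, Letm1 and Slc8b1, and for each of the 7 ratios to Mcu in the fits with 1 library left out and with 0.1 FPKM added (counts per gene length give the same ratio by construction). Of the 8 genes, 1 was called; 2 were called with no filter on low counts (Mcu and Mcur1), 3 at an unadjusted p under 0.05 (a rule chosen after seeing the data), and 0 with limma on FPKM in each of 3 settings, without the mitochondrial genome, with the replicate block and with the fold threshold of the methods. Leaving out 1 library gave 0 to 1. Upper quartile normalization and leaving out Trpm2-/- library 4 also gave 1, which was Mcu (adjusted p = 0.0418 and 0.0263 in edgeR) and not Mcur1. The cause was not tested. Of the calcium handling genes, 12 were called. On FPKM, limma called 4 with a pseudocount of 1 and 4 with 0.1. It called 7 with a pseudocount of 1 and a mean of at least 1 FPKM (13.2%, against 11.9% of all genes). The replicate block left 4 (7.14%, against 6.34% of all genes). The fold threshold left 1 of the 56 tested, a smaller share than the 7.60% of all genes. The unadjusted p gave 26 of the 56, 6 higher and 20 lower, a larger share than the 28.3% of all genes. Leaving out 1 library gave 1 to 14.

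Replicate numbers 1 and 2 occur in both genotypes, but same-numbered mice did not deviate together (r = 0.06 and -0.01 across genes), so the numbers are taken as names only. Numbers 3 and 4 each occur in 1 genotype. The genotype difference in the fit with the replicate block thus rests on libraries 1 and 2 of each genotype. In that fit the log2 fold change of Mcub was -0.20 and that of Micu3 -0.10, reversed from 0.11 and 0.09. Mcur1 had an adjusted p of 0.0992 in edgeR with the block. Leaving out 1 library gave -0.084 to 0.32 for Mcub and -0.15 to 0.22 for Micu3.

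Over all genes, 1902 were called, 2954 with no filter, 1058 and 1124 with limma on FPKM at a pseudocount of 1 and 0.1, 1002 with the block, 697 without WT library 2 and 630 without WT library 3. With limma and a pseudocount of 1, 304 were higher and 754 lower, against 750 and 1152. Counts were lowest for Mcub, at 29 to 59 per library, and depth was not separated from the spread between mice.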

Other observations

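Other cell types of the kidney were read from 3 further marker lists. Of all genes tested, 4.74% were called higher and 7.28% lower. Of 9 markers of the distal tubule and collecting duct that were tested, 3 were called lower in Trpm2-/- kidneys and 0 higher in edgeR, with a median log2 fold change of -0.57 and a summed level of 2492 to 3489 CPM in WT libraries and 1055 to 1891 CPM in Trpm2-/- libraries. Pvalb was not tested and was at 0 counts in 1 library. Of 8 genes of the injured tubule, 1 was called higher, with all 8 above 0, a median of 0.45 and a summed level of 16916 to 18794 CPM in WT libraries and 18261 to 26402 CPM in Trpm2-/- libraries. Most of that sum was Spp1, with means of 12595 CPM in WT and 14729 CPM in Trpm2-/- kidneys (adjusted p = 0.561 in edgeR). Of 10 markers of stroma and endothelium, 1 was called higher, with a median of 0.05 and a summed level of 107.9 to 137.7 CPM in WT libraries and 85.1 to 268 CPM in Trpm2-/- libraries. The called genes were Sox9 in the injured tubule list and Acta2 in the stroma list, named here after their values were seen. The part of these lists in the results for the uniporter genes was not tested.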
